A study of Mus musculus with 55 samples.

Results

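The regions described here had H3K4me2 peaks listed in PRMK lung tumours and none listed in PRM lung tumours of mice. H3K4me2 is dimethylated lysine 4 of histone H3, mapped by CUT&Tag, in which an antibody directs a transposase to the chromatin that carries the mark. The 4 deposited H3K4me2 peak lists were merged wherever peaks shared at least 1 bp, which gave 36088 regions. A region was called gained where both PRMK libraries and neither PRM library had a peak. That rule gave 2912 gained regions, or 8.07% of all regions. The opposite rule gave 489 lost regions (1.36%), and 15152 regions (42%) had a peak in all 4 libraries and are called kept.

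PRM tumours grew from lung organoids with guides against Trp53 (sgTrp53) and Rb1 (sgRb1) and with a Myc transgene (MSCV-Myc-IRES-Luc2). PRMK tumours added a guide against Kmt2c (sgKmt2c). Organoids were injected into the left lung lobe of recipient mice, and the material was taken back from those mice. In the H3K4me2, H3K4me3 and KMT2C series, PRMK replicate 1 also listed a Meis2 guide (sgMeis2) and PRMK replicate 2 a scrambled guide (sgScramble), so these 2 replicates differ in genotype as labelled. The H3K4me1 and ATAC PRMK libraries listed sgKmt2c with neither extra guide, and the RNA PRMK libraries listed no Kmt2c guide. Each mark had 2 libraries per group and RNA had 3. Nothing in the labels says that replicates came from separate mice, so spreads and p-values cover only these libraries. The recipient strain, sex and age were not given in the sources used here.

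Methylation of H3K4 grades along regulatory DNA. H3K4me1 is typical of enhancers, H3K4me3 of active start sites, and H3K4me2 lies over both. KMT2C, also called MLL3, is a methyltransferase that places H3K4me1 at enhancers as part of a complex with UTX. PRM tumours model small cell lung cancer, a neuroendocrine tumour.

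Promoter sequences are shown for 7 genes whose start site lay inside a gained region. Hoxb4 and Hoxb8 stand for the strongest gained region. Rgmb and Fgf9 stand for the next strongest that held a start site, Dnmbp for a gene with 4 gained regions, and Cxcl13 and Adamts20 for genes with a higher and a lower RNA level in PRMK. Each run is the RefSeq window of 300 bases on GRCm38.p6, from 250 bases before the start site to 50 bases from it onwards, on the strand of the gene. Capitals mark CpG dinucleotides.
Hoxb4, forward strand, chr11:96318017-96318316: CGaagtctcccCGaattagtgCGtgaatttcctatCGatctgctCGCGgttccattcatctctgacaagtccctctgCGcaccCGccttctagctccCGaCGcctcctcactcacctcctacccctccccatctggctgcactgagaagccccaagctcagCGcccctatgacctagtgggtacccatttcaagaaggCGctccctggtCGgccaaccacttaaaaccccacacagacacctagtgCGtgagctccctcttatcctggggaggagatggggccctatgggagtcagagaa
Hoxb8, forward strand, chr11:96281655-96281954: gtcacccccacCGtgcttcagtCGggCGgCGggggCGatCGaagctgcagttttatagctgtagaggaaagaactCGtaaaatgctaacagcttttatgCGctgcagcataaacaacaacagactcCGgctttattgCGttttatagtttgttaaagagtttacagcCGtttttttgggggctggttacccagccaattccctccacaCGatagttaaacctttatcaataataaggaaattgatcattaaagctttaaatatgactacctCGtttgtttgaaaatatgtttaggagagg
Rgmb, reverse strand, chr17:15826517-15826816: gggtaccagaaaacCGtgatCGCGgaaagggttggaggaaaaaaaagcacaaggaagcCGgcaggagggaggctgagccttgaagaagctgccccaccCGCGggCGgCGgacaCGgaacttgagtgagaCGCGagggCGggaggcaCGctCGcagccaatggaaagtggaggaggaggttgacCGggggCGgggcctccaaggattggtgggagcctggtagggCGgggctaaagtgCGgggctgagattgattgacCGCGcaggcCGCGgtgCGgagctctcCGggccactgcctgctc
Fgf9, forward strand, chr14:58072436-58072735: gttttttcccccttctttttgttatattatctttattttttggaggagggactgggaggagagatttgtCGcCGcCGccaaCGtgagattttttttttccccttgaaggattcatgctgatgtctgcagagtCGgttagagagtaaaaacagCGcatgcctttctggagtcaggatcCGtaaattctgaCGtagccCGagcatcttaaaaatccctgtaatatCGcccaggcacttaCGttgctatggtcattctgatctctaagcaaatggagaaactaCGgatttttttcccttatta
Dnmbp, reverse strand, chr19:43879719-43880018: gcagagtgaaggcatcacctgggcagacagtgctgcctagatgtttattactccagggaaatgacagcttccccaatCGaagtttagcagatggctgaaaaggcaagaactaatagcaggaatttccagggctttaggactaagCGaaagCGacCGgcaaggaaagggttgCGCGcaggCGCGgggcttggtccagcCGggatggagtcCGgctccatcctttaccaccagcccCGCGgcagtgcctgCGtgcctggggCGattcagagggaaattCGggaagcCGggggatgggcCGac
Cxcl13, forward strand, chr5:95956689-95956988: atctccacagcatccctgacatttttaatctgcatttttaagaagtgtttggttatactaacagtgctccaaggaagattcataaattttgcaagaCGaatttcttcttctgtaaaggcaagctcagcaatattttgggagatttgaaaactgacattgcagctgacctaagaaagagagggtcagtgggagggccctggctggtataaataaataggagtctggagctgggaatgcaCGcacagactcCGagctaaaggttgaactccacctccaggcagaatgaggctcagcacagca
Adamts20, reverse strand, chr15:94404301-94404600: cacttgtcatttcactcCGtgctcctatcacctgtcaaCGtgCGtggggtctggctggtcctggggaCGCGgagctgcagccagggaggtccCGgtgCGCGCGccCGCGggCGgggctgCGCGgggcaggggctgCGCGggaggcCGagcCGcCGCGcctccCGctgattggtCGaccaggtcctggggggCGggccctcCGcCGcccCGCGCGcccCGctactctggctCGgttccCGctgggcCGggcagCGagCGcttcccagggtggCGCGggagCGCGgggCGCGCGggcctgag

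Promoters in gained regions held fewer CpG dinucleotides than those in kept regions, and so did promoters in lost regions. The median window in gained regions held 10 CpG dinucleotides (517 windows of 459 genes), against 21 in kept regions (13543 windows), 8.5 in lost regions (74 windows) and 7 over all 32817 windows. A window with at least 55% GC and an observed to expected CpG ratio of at least 0.6 was counted as CpG rich. Of the windows in gained regions 27.5% were CpG rich, against 63.3% in kept regions, 17.6% in lost regions, 2.96% outside every H3K4me2 region and 30.3% of all windows. The windows printed above span that range, from 3 CpG dinucleotides at Cxcl13, which encodes a B cell chemokine, to 41 at Adamts20, which encodes a secreted metalloprotease.

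Short motifs were searched on both strands of these windows. The MEIS core TGACAG was in 18.8% of the windows in gained regions and in 19.2% of all windows. The HOX-PBX site TGATNNAT was in 8.12% against 8.86% of all, and in 3.68% of windows in kept regions. The NEUROD1 E-box CAGATG was in 13.3% against 17.2% of all. The AP-1 site TGANTCA was in 6.19% against 7.81%, and the TFAP2 site GCCNNNGGC was in 20.5% against 16.6%. Shares for these 5 motifs in gained regions thus lay within 4 percentage points of those over all windows. Among the printed windows, Hoxb8 held 1 HOX-PBX match and Dnmbp and Adamts20 held 1 MEIS core each. Hoxb4 and Dnmbp held 1 NEUROD1 E-box each, and Dnmbp also held 1 TFAP2 site. A match is a stretch of letters, not evidence of binding.

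The H3K4me2 values below chose the members and are given as a description. The PRMK lists held 32410 peaks in replicate 1 and 23302 in replicate 2, and the PRM lists held 20164 and 23433. The lowest total signal listed, which is the signal summed over a peak by SEACR, was 15080 and 28253 in the PRMK libraries and 47954 and 29668 in the PRM libraries. Gained regions were weaker than kept ones. Their median total signal was 38212.5 in PRMK replicate 1 and 38692 in replicate 2, against 95972.5 and 118568 for kept regions. The lowest value of PRM replicate 1 exceeded the signal of 69.1% of gained regions in PRMK replicate 1 and of 70.5% in replicate 2. For the lowest value of PRM replicate 2 these shares were 28.5% and 8.59%. The number of regions at or above the lowest value of PRM replicate 1 in both PRMK libraries was 604 (20.7%). With PRMK peaks held to at least that value, an alternative added after seeing the data, the rule gave 583 gained regions, of which 67.2% had H3K4me1 and 32.9% H3K4me3 in both PRMK libraries.

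**Figure D1:**
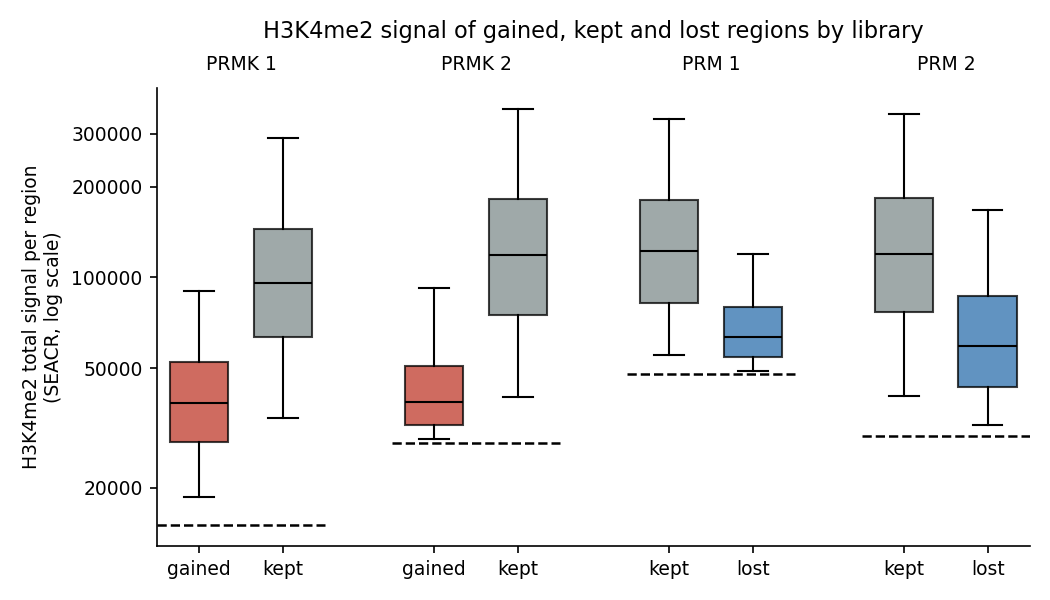
Total H3K4me2 signal per region on a log scale, by library, with boxes from the first to the third quartile, a line at the median, whiskers from the 5th to the 95th percentile, and a dashed line at the lowest signal each library lists. Gained regions sit near the lower end of the kept regions in both PRMK libraries. Their medians of 38212.5 and 38692 lie below the dashed line of PRM replicate 1 at 47954. They lie above that of PRM replicate 2 at 29668.

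At the edges of the rule, the closest PRM peak to a gained region was 5 bp away, 111 gained regions (3.81%) had one within 1000 bp, and the median distance was 14460.5 bp. Just outside the rule, 4097 regions had peaks in both PRMK libraries and in 1 PRM library, and 7206 had a peak in 1 PRMK library only. Without PRMK replicate 2 the rule called 10110 regions, without PRMK replicate 1 3211, without PRM replicate 1 4643 and without PRM replicate 2 5373. Leaving out a library drops a condition of the rule, so these counts could not fall below 2912. The rise was largest without PRMK replicate 2, and the count was over 1.5 times as high also without either PRM library.

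Gained regions lay mainly away from start sites. A start site was within 1 kb of 339 of them (11.6%), 1595 (54.8%) lay elsewhere inside a protein-coding gene and 978 (33.6%) lay between genes. Of kept regions 56.9% were at a start site, 29.4% inside a gene and 13.8% between genes. Lost regions resembled gained ones in place, with 7.57%, 47.2% and 45.2%. The median gained region was 3225 bp wide (range 802 to 89512) and 29031 bp from the nearest start site, and together the gained regions covered 10.5 Mb. The start-site table does not hold every gene, so the start-site shares are lower limits for all classes alike.

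The share of regions that were gained differed between chromosomes. It was lowest on chromosome 8 at 4.02% (70 of 1742; 95% exact binomial interval 3.15 to 5.05) and on chromosome 14 at 4.17% (45 of 1078; 3.06 to 5.55). It was highest on chromosome 19 at 13.1% (122 of 928; 11 to 15.5) and on chromosome 16 at 12.6% (161 of 1276; 10.8 to 14.6). Lost regions ran the other way, at 3.67% on chromosome 8 and 3.06% on chromosome 14 against 0.431% on chromosome 19 and 0.392% on chromosome 16. The median RNA log2 fold change of the tested genes was -0.18 on chromosome 8, 0.21 on chromosome 14, -0.01 on chromosome 19 and -0.11 on chromosome 16, in no such order. These intervals cover counting error only.

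**Figure D2:**
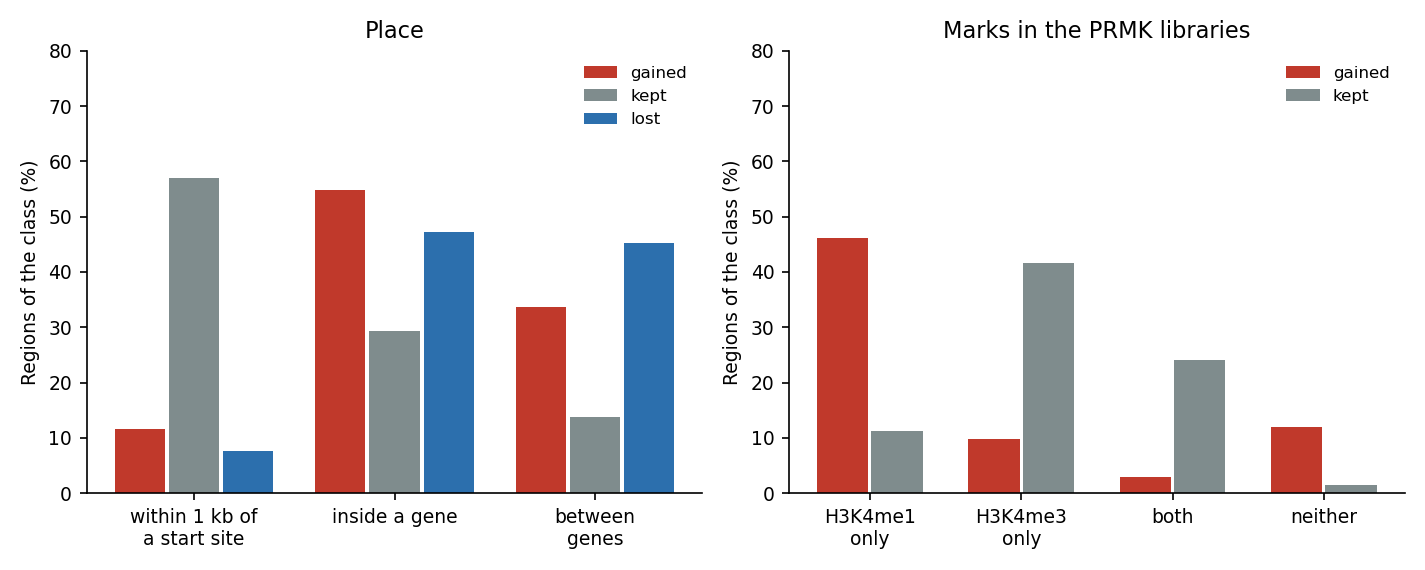
Left, percent of gained, kept and lost regions within 1 kb of a start site, elsewhere inside a gene, or between genes. Right, percent of gained and kept regions with H3K4me1 in both PRMK libraries and H3K4me3 in neither (H3K4me1 only), the reverse (H3K4me3 only), both marks in both, or neither mark in any PRMK library. Gained regions are mostly inside genes (54.8%) and most often carry H3K4me1 alone (46.2%), while kept regions are mostly at start sites (56.9%).

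H3K4me1 came from libraries that the rule did not use. It overlapped 67.6% and 55.9% of gained regions in PRMK replicates 1 and 2, and 40.5% and 37.6% in PRM replicates 1 and 2. Both PRMK shares were above both PRM shares, and 2 libraries against 2 cannot give an exact two-sided permutation p below 0.333. The H3K4me1 lists held 38075 and 36911 peaks over 148 and 77.4 Mb in PRMK. Those of PRM held 30399 and 27746 peaks over 125 and 111 Mb. Over all 36088 regions the shares were 55.8% and 43.1% in PRMK and 43.7% and 40.4% in PRM. The part of list length in these shares was not tested. In kept regions the PRMK shares were 53.0% and 41.0% and the PRM shares 42.8% and 39.5%. In lost regions they were 49.1% and 32.5% against 64.8% and 61.6%. H3K4me1 thus differed between PRMK and PRM in the same direction as H3K4me2, in gained and in lost regions.

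Both PRMK libraries and neither PRM library had H3K4me1 in 538 gained regions (18.5%), against 9.46% of all 36088 regions and 5.79% of kept regions. All 4 libraries had it in 938 gained regions (32.2%), near the 29.2% of all regions and 30.7% of kept regions. None had it in 843 (28.9%), against 36.1% of all regions. Liver PRM tumours had H3K4me1 in both libraries in 35.7% of gained regions, against 38.8% of all regions. By place, H3K4me1 was in both PRMK libraries in 67.6% of the gained regions inside genes, 44.1% of those between genes and 21.2% of those at start sites.

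H3K4me3, also from separate libraries, overlapped 31.8% and 15.7% of gained regions in PRMK and 10.2% and 11.4% in PRM. All of these were below its shares over all regions, 45.3% and 38.7% in PRMK and 44.0% and 51.9% in PRM. In kept regions the shares were 85.0% and 79.1% in PRMK and 85.3% and 92.6% in PRM. Both PRMK libraries and neither PRM library had H3K4me3 in 184 gained regions (6.32%), against 0.693% of all regions. Over all 36088 regions there were 250 regions with that H3K4me3 pattern, so 184 of the 250 were gained H3K4me2 regions. The pattern was met in 14 kept regions (0.0924%) and in 0 of 489 lost regions, where the exact interval reaches 0.752%. At gained start sites it was met in 12.1%, inside genes in 5.33% and between genes in 5.93%. Most gained regions had no H3K4me3 in any library (1888 regions, 64.8%, against 41.4% of all regions). The share in both PRMK libraries was 15%, and it was 1.1% when only the stronger 50 percent of each H3K4me3 list was used. With 1 library each it was 31.8% without PRMK replicate 2 and 15.7% without PRMK replicate 1.

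Read together in the PRMK libraries, H3K4me1 in both and H3K4me3 in neither was the most frequent combination, at 1344 gained regions (46.2%) against 11.3% of kept regions. H3K4me3 in both with H3K4me1 in neither held for 285 (9.79%) against 41.6% of kept regions. Both marks were present in 84 (2.88%) and neither in 346 (11.9%).

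**Figure D3:**
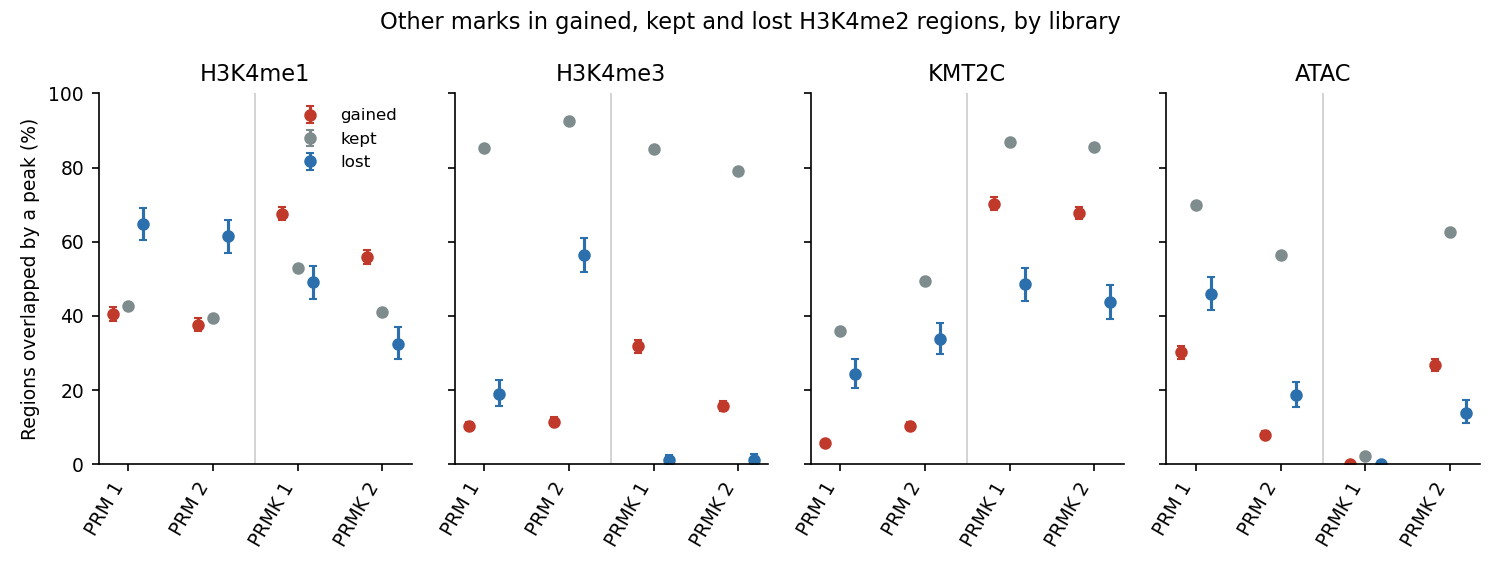
Percent of gained, kept and lost H3K4me2 regions overlapped by at least 1 bp of a peak, by library, with 95% exact binomial intervals for counting error. For H3K4me1 and H3K4me3 the gained regions stand higher in both PRMK than in both PRM libraries, and for KMT2C all classes stand higher in PRMK, where the lists are longer.

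KMT2C was sparse in gained regions of PRM tumours. It overlapped 5.67% and 10.4% of them in lung PRM replicates 1 and 2, against 35.8% and 49.3% of kept regions and 24.3% and 33.7% of lost regions. Both lung PRM libraries had it in 140 gained regions (4.81%). Without PRM replicate 1 the share was 10.4% and without PRM replicate 2 it was 5.67%. Liver PRM libraries, with longer lists (65201 and 113129 peaks), overlapped 39.5% and 52.8% of gained regions. Their shares were 53.7% and 64.8% over all regions and 76.4% and 85.8% in kept regions.

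The lung PRMK KMT2C lists overlapped 70.3% and 67.8% of gained regions, although these tumours carry the Kmt2c guide. These shares were near the 69.9% and 67.2% of all 36088 regions and below the 86.9% and 85.5% of kept regions. Those lists held 187682 and 134561 peaks over 143 and 120 Mb, against 9949 and 16681 peaks over 21.0 and 29.6 Mb in lung PRM. KMT2C in both PRMK and neither PRM library was met in 48.0% of gained regions, 32% of all regions and 31.6% of kept regions. Whether the PRMK lists report KMT2C itself was not tested. Kmt2c RNA was at 85.1, 84.4 and 105 CPM, which is the count scaled to library size, in PRMK libraries 1 to 3 and at 113, 187 and 67.6 CPM in PRM libraries 4 to 6, which overlap. PRM RNA libraries are named by their column numbers.

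Open chromatin by ATAC was found in 30.2% and 7.90% of gained regions in PRM and in 0.172% and 26.7% in PRMK. PRMK replicate 1 listed only 593 ATAC peaks, so no difference between the groups can be read from ATAC. In PRM replicate 1, 69.8% of kept regions had a peak.

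The strongest gained region covered the Hoxb cluster, at chr11:96268207-96357718 (mm10). Hox genes encode homeodomain factors that give cells their position along the body axis. The region was 89512 bp wide, crossed the genes Hoxb2 to Hoxb9, and had a total H3K4me2 signal of 3.18e+06 in PRMK replicate 1 and 4.18e+06 in replicate 2. The nearest PRM peak was 190826 bp away. H3K4me3 covered 87372 and 87396 bp of it in the PRMK libraries and 0 bp in both PRM libraries, and H3K4me1 covered 56827 and 38685 bp in PRMK and 0 bp in PRM. KMT2C covered 43738 and 47221 bp in PRMK and 0 bp in lung PRM.

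RNA of the cluster followed in part. Hoxb4 was at 6.55, 0.835 and 47.7 CPM in PRMK libraries 1, 2 and 3 and at 0.261, 0.0561 and 0.445 CPM in PRM libraries 4, 5 and 6. The groups did not overlap, and PRMK library 3 was far above the others. On the log2 scale the difference was 6.19 (SE 1.70; edgeR adjusted p 0.208, DESeq2 adjusted p 0.00042). Without PRMK library 3 the DESeq2 adjusted p of Hoxb4 was 0.112.

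Hoxb5 had 9.85, 0.261 and 103 CPM in PRMK and 0 counts in every PRM library, so its mean was at least 607-fold higher in PRMK against a floor of 3 counts over the PRM group (81.2-fold without PRMK library 3). Hoxb6 had 3.78, 0.313 and 51.8 CPM against 0 counts, at least 299-fold higher (32.9-fold without PRMK library 3). Both missed the edgeR filter on low counts. DESeq2 gave adjusted p-values of 1.09e-05 for Hoxb5 and 6.23e-05 for Hoxb6, and calls that were lost without PRMK library 1 for Hoxb5 (0.156) and without PRMK library 1 or 3 for Hoxb6 (0.198 at most). Hoxb2, Hoxb3, Hoxb7 and Hoxb8 overlapped between the groups, where PRMK library 2 had 0 to 3 counts of each. PRMK library 3 was the highest for all 7 Hoxb genes measured.

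The neighbouring gene Skap1, which encodes an adaptor protein of T cells, held the longest run of gained regions. Runs were formed from gained regions at most 50 kb apart, and 90 of the 2389 runs had at least 3 regions (324 regions, 11.1%). At Skap1 8 gained regions with 61179 bp in all lay between 96461343 and 96676997 on chromosome 11. H3K4me1 was present in both PRMK libraries in all 8, and in lung PRM in the last pair only. Liver PRM replicate 2 had it in 3 of the 8. Skap1 RNA was at 1.93, 0.157 and 22.7 CPM in PRMK and 0.314, 0 and 0 CPM in PRM, with the same order of PRMK libraries as Hoxb4. Its DESeq2 adjusted p of 0.0231 became 0.610 at most, and the call was lost without PRM library 5 or PRMK library 1 or 3. The summed level of 11 measured myeloid and lymphoid markers was 521, 559 and 780 CPM in PRMK and 586, 6.28 and 99.0 CPM in PRM. Summed epithelial and lung markers (14 measured) were at 3090, 1080 and 4290 CPM in PRMK and 720, 105 and 3670 CPM in PRM, and endothelial markers (6 measured) at 80.9, 27.9 and 203 against 42.7, 4.6 and 22.3 CPM. These 2 sums had the same order of PRMK libraries as Hoxb4 and Skap1, and the part of any of the 3 lists in those genes was not tested. In these bulk samples, more cells of a type and more RNA per cell cannot be told apart.

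**Figure D4:**
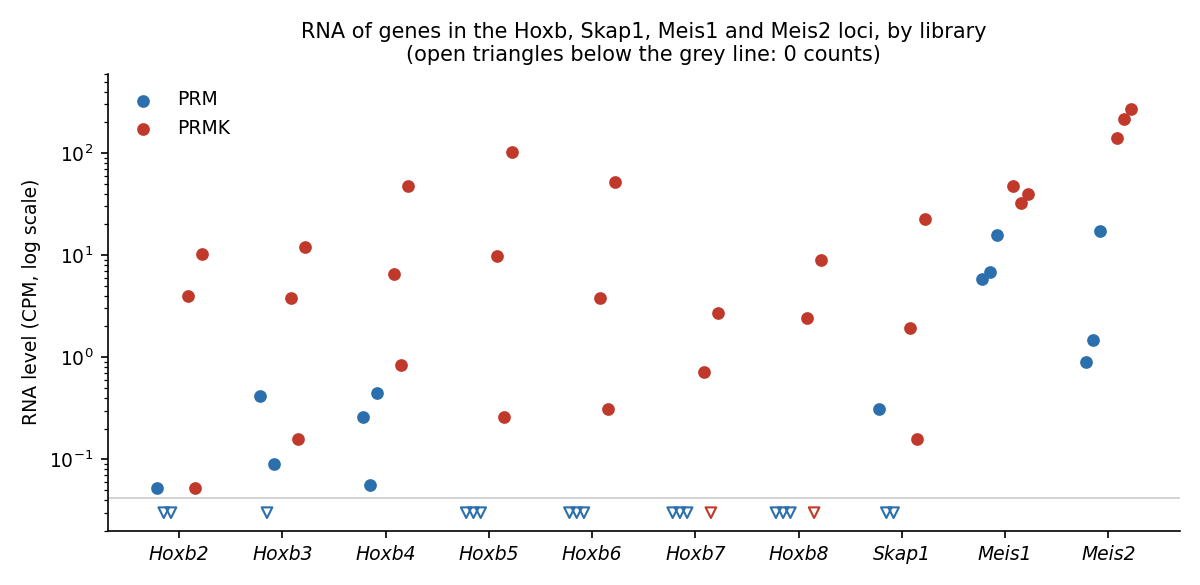
RNA level in CPM on a log scale for genes of the Hoxb, Skap1, Meis1 and Meis2 loci, 1 point per library (3 PRM, 3 PRMK); open triangles mark libraries with 0 counts. The PRMK libraries run from 0.261 to 103 CPM at Hoxb5, from 32.1 to 47.3 CPM at Meis1 and from 139 to 272 CPM at Meis2, and at these 3 genes they lie above every PRM library.

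Meis1 and Meis2 encode TALE homeodomain factors that bind DNA together with Hox and Pbx proteins. Meis1 held 5 gained regions between 18869881 and 18991416 on chromosome 11. The widest was 19656 bp, lay 129433 bp from the nearest start site and had a total signal of 5.54e+05 and 6.30e+05. H3K4me3 covered 13601 and 12155 bp of that region in PRMK and 5700 and 3555 bp in PRM. H3K4me1 covered 14603 and 10895 bp in PRMK and 0 bp in PRM. Meis1 RNA was at 47.3, 32.1 and 39.8 CPM in PRMK and 5.80, 6.89 and 15.7 CPM in PRM. The groups did not overlap (log2 fold change 2.07, SE 0.46; edgeR adjusted p 0.19, DESeq2 adjusted p 0.00213). The DESeq2 call was lost without PRMK library 1 or 3, up to an adjusted p of 0.111.

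Meis2 held 3 gained regions inside the gene, the largest at chr2:115894333-115901726 (7394 bp). There H3K4me1 covered 7359 and 6235 bp in PRMK and 1744 and 1939 bp in PRM. Meis2 RNA was at 139, 215 and 272 CPM in PRMK and 0.889, 1.46 and 17.3 CPM in PRM, with no overlap. The log2 fold change was 5.02 (SE 1.25; edgeR adjusted p 0.195, DESeq2 adjusted p 0.00026), and the DESeq2 call held without each library in turn. The H3K4me2 library of PRMK replicate 1 carried a Meis2 guide, which the RNA libraries did not list.

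A second Hox cluster was touched only at its edge. A run of 7 gained regions (32371 bp) near Hoxc4 and Smug1 lay between 103033680 and 103185045 on chromosome 15. Hoxc4 RNA was low in all libraries, from 0 to 0.396 CPM, and overlapped between the groups.

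Rgmb, which encodes a bone morphogenetic protein co-receptor, Fgf9, a growth factor of lung mesenchyme development, and Gbe1, the glycogen branching enzyme, also held regions of high signal. At the Rgmb start site (chr17:15823048-15832789), H3K4me3 covered 8505 and 8470 bp in PRMK and 2731 and 1167 bp in PRM. At Fgf9 (chr14:58069312-58078867) it covered 7986 and 7782 bp in PRMK and 4953 and 0 bp in PRM. RNA overlapped between the groups at all 3 genes. Rgmb was at 25.2, 29.0 and 13.9 CPM in PRMK and 33.4, 11.5 and 19.6 CPM in PRM, Fgf9 at 2.94, 0.992 and 2.57 against 0, 0 and 1.34 CPM, and Gbe1 at 26.6, 21.8 and 26.4 against 15.3, 10.9 and 25.1 CPM. Mean RNA was higher in PRMK at Fgf9 (2.17 against 0.445 CPM) and Gbe1 (24.9 against 17.1 CPM). At Rgmb, where both groups had H3K4me3, the means were 22.7 and 21.5 CPM. The wide gained region at Rgmb was thus not met by a clearly higher RNA level.

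Counted over each gene and 10 kb on either side, the clustered protocadherins had the most gained regions (12, of which 10 had the H3K4me3 gain). Next were Foxp1 (10), Skap1 (8), Auts2 (8), Npas3 (7), and Tenm2, Zfp407 and Ptprm (6 each). These loci were chosen after their counts were seen. They are long, from 295053 bp for Skap1 to 1230398 bp for Tenm2, against a median of 17146 bp for all genes. Protocadherins are adhesion molecules of neurons. Foxp1, a forkhead repressor, was at 317, 332 and 280 CPM in PRMK and 237, 78.9 and 99.3 CPM in PRM, with no overlap and a DESeq2 adjusted p of 0.123. Tenm2, which encodes the neuronal adhesion protein teneurin-2, was at 11.5, 1.77 and 88.1 CPM in PRMK and 0.157, 2.19 and 0.445 CPM in PRM. Its groups overlapped, and its DESeq2 adjusted p of 0.00494 became 0.332 at most, losing the call without PRMK library 3. Npas3, which encodes a neural transcription factor, was at 3.22, 2.56 and 5.55 against 4.13, 1.68 and 0.712 CPM. RNA of Npas3, Auts2, Zfp407 and Ptprm overlapped between the groups, with log2 fold changes of 0.79, 1.19, -0.11 and 1.69. By nearest start site within 50 kb, Tcf12, Ptprj, Dnmbp, Gas2l2 and Arhgef16 had 4 gained regions each. Tcf12, which encodes an E-protein of the helix-loop-helix family, was at 225, 239 and 191 CPM in PRMK and 138, 205 and 193 CPM in PRM. Arhgef16, which encodes a guanine nucleotide exchange factor, was at 92.7, 27.3 and 183 against 8.73, 0.841 and 24.1 CPM (DESeq2 adjusted p 0.0506).

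Of 21900 protein-coding genes, 2398 (10.9%) had a gained region inside or within 10 kb, which is the background for the gene lists. Among Hox genes 10 of 39 did (25.6%), of which 9 shared the 1 Hoxb region. Among Meis, Pbx and other TALE genes 4 of 18 did (22.2%): Meis1, Meis2, Irx4 and Pknox2. None of the drivers Trp53, Rb1, Myc and Kmt2c had one, nor did Dnmt3a.

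Axon guidance genes had gained regions at 11 of 37 loci (29.7%), and these genes are long, with a median of 188791 bp against 17146 bp for all genes. Of the 10 tested, DESeq2 called Sema3e and Ephb2 higher and Sema6a lower, where it called 4% of all tested genes higher and 4.71% lower. Among all tested genes with a gained region inside or within 10 kb, the DESeq2 shares were 5.97% and 3.84%. Sema3e, a secreted semaphorin, was at 274, 327 and 264 CPM in PRMK and 57.0, 3.36 and 29.5 CPM in PRM (DESeq2 adjusted p 0.00534). Ephb2, an ephrin receptor, was at 168, 231 and 204 against 28.6, 108 and 30.1 CPM (0.0354). Sema6a, a membrane semaphorin, was at 1.53, 4.12 and 1.15 against 0.889, 100 and 19 CPM (0.0221), and its groups overlapped. The DESeq2 call of Sema3e was lost without any 1 PRMK library, that of Sema6a without PRM library 5 or PRMK library 1 or 3, and that of Ephb2 without any library but PRM library 5.

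Adhesion and protocadherin genes off the cluster had gained regions at 6 of 31 loci (19.4%), and these genes too are long, with a median of 290816 bp. The 6 included Nfasc, Cdh4 and Nrxn3. Cdh4, a cadherin gene, was at 73.8, 92.3 and 74.1 CPM in PRMK and 30.9, 20.6 and 3.83 CPM in PRM, with no overlap. Its DESeq2 adjusted p of 0.0399 lost the call without any PRMK library or without PRM library 5 (0.264 at most). Developmental transcription factors had them at 12 of 60 (20%), led by Foxp1, Sox6 and Lhx9, and DESeq2 called 0 of the 10 tested. Ion channel genes had them at 4 of 38 (10.5%), a share near the background although their median length is 395643 bp. One of these, the potassium channel gene Kcnd2 with 2 gained regions, was at 25.2, 19.5 and 17.5 CPM in PRMK and 0.0523, 0.0561 and 0.534 CPM in PRM. Its log2 fold change was 6.70 (edgeR adjusted p 0.19, DESeq2 adjusted p 1.01e-13), and the DESeq2 call held without each library in turn.

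Neuroendocrine genes had gained regions at 4 of 28 loci (14.3%): Nfib, Neurod2, Dll3 and Scg3. None of the 3 tested was called by DESeq2. Neurod2, below the filter on low counts, was at 0, 0.0522 and 0 CPM in PRMK and 0.0523, 2.13 and 3.29 CPM in PRM (DESeq2 adjusted p 0.0132). Notch, Yap and non-neuroendocrine genes had them at 5 of 22 loci (22.7%), and of the 3 tested DESeq2 called Tead1 and Epha2 lower in PRMK (4.71% of all tested genes, and 3.84% of those with a gained region inside or within 10 kb, were called lower). Tead1, a partner of Yap, was at 139, 161 and 123 CPM in PRMK and 193, 371 and 318 CPM in PRM (DESeq2 adjusted p 0.0355), and this call was lost without any library but PRM library 4 (0.315 at most). Epha2, an ephrin receptor, was at 1.05, 0.731 and 3.17 against 0.366, 7.74 and 133 CPM, so its groups overlapped. Its DESeq2 adjusted p of 0.0227 became 0.564 at most, and the call was lost without PRM library 6 or PRMK library 1 or 2. The third tested, Notch1, at 4.74, 3.34 and 3.53 against 5.12, 0.617 and 66.2 CPM, was likewise highest in PRM library 6. That library held 504 CPM of neuroendocrine genes in all, against 6200 to 8810 CPM in the other 5, and its part in these results was not tested.

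Genes of the H3K4 methylation machinery had gained regions at 3 of 21 loci (14.3%), Paxip1, Kdm2b and Setd1b, and of the DNA methylation machinery at 3 of 13 (23.1%), Tet3, Mbd2 and Dnmt3l. None of those tested was called by DESeq2. Markers of other cell types were read against the same 10.9%. Epithelial and lung markers had a gained region at 0 of 22 loci, fibroblast markers at 0 of 15, endothelial markers at 1 of 10 (Vwf) and myeloid and lymphoid markers at 2 of 16 (C1qa and C1qb, which lie together), the last pair of lists at 10% and 12.5%. The epithelial and lung markers are short genes, with a median of 5008 bp.

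RNA was compared over all genes first. The 6 libraries held 12013253 to 24123055 counts. Of 13914 genes tested, edgeR's quasi-likelihood test called 0 (0%) at a Benjamini-Hochberg adjusted p under 0.05. At an unadjusted p under 0.05 it had 978 higher (7.03%) and 1406 lower (10.1%). DESeq2 called 556 of them higher (4%) and 655 lower (4.71%). Every PRMK library was above every PRM library for 15.1% of genes and below for 14.6%. The median log2 fold change was -0.02.

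Tested genes with their start site inside a gained region stood higher in PRMK than all tested genes. Of 306 genes with a start site inside, 224 were in the RNA table and 168 passed the filter on low counts. A gene could pass this filter through 1 group alone, here and in the groups of genes below. What this did to the medians and shares was not tested. The 168 genes had a median log2 fold change of 0.39, and 58.9% were above 0 (48.6% of all genes tested). Every PRMK library was above every PRM library for 34 (20.2%) and below for 16 (9.52%). DESeq2 called 16 higher (9.52%) and 5 lower (2.98%), and edgeR called 0. Leaving out each library in turn, the median of these genes stayed 0.17 to 0.65 above that of all genes.

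With distance the difference shrank. For genes whose start site was the nearest and 5 to 50 kb away (861 tested), the median was 0.02, with 15.8% wholly above and 12.5% wholly below. For the 1140 tested genes within 50 kb in all, it was 0.05, and DESeq2 called 59 higher (5.18%) and 49 lower (4.3%), near the background shares. These calls were unstable: over all genes near gained regions that DESeq2 could fit, it called 120, but 23 without PRMK library 1, 56 without PRMK library 2, 27 without PRMK library 3, and 210 and 349 without PRM libraries 6 and 4.

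Counted by locus, 1825 tested genes with a gained region inside or within 10 kb had a median of 0.09, with 18.6% wholly above and 9.75% wholly below. The 70 tested genes with at least 3 gained regions had a median of 0.56, with 25.7% wholly above and 2.86% wholly below. The 158 tested genes with a region that also gained H3K4me3 had a median of 0.30, with 25.3% and 6.96%. Assigned by nearest start site within 50 kb instead, the 81 tested genes with such a region had a median of 0.06, with 16% wholly above and 11.1% wholly below, close to all genes. Assigned that way, the 246 tested genes with a gained region at or above 47954 in both PRMK libraries had a median of 0.12, with 14.2% and 12.6%. Counted by locus, the 490 tested genes with such a region had a median of 0.17, with 19.4% and 10.2%. The 254 tested genes with a lost region inside or within 10 kb had a median of 0.08, with 16.5% and 10.6%, and this median is not below that of all genes. These groups of genes share members.

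**Figure D5:**
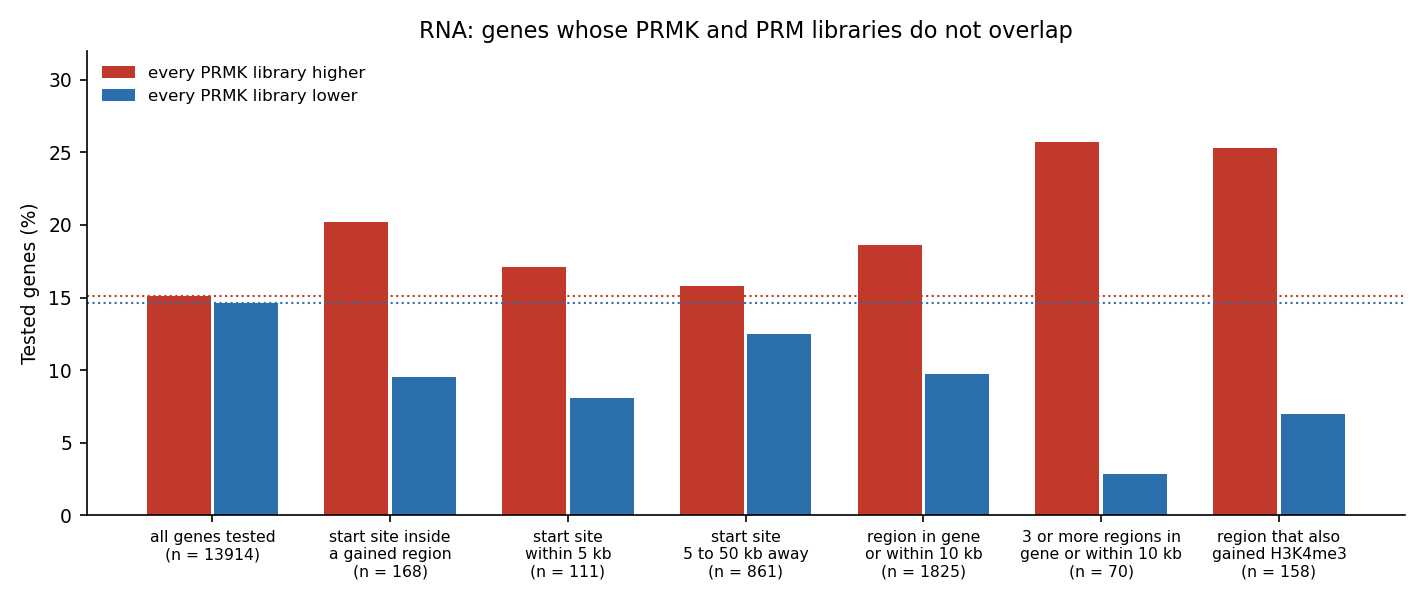
Percent of tested genes whose 3 PRMK libraries were all above (red) or all below (blue) the 3 PRM libraries, for all genes and for genes grouped by their gained regions; dotted lines mark the shares over all genes, 15.1% and 14.6%. Among the groups drawn, the share wholly above is highest for genes with at least 3 gained regions (25.7%) and for genes with a region that also gained H3K4me3 inside or within 10 kb (25.3%); by nearest start site, not drawn, the latter share is 16%.

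Within 50 kb of a gained region, 102 genes had a DESeq2 call, a mean of at least 1 CPM and no overlap between the groups. The 56 higher were 4.91% of the 1140 tested there, against 3.82% of all tested genes, and the 46 lower were 4.04% against 4.48%. The 8 highest were Hoxb4, Cxcl13, Oprd1, Deup1, Cnpy1, Tmem30b, Sv2b and Sytl1. Oprd1, the delta opioid receptor gene, was at 50.1, 5.85 and 63.1 CPM in PRMK and 0.784, 1.85 and 0.178 CPM in PRM. Sv2b, a synaptic vesicle protein gene, was at 80.6, 17.4 and 58.8 against 4.86, 2.69 and 0.623 CPM. Their DESeq2 adjusted p-values were 2.43e-05 and 5.21e-05, and both calls held without each library in turn. Cxcl13 was at 1.85, 5.27 and 49.9 against 0.523, 0 and 0.356 CPM, and its DESeq2 adjusted p of 0.00175 became 0.211 without PRMK library 3. Sytl1, a vesicle trafficking gene with its start site in a gained region, was at 19.7, 9.76 and 14.3 against 0.523, 0.168 and 2.23 CPM. Its DESeq2 adjusted p was 0.0815 without PRMK library 1.

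The 8 lowest were Adamts20, Hk2, Prickle1, Galk1, Ube2v1, Slc16a1, Lrp2bp and Mybl2. Hk2, which encodes hexokinase 2 of glycolysis, was at 6.84, 5.06 and 7.01 CPM in PRMK and 27.8, 59.6 and 142 CPM in PRM. Galk1, galactokinase, was at 20.4, 22.8 and 15 against 80.7, 145 and 178 CPM. Prickle1, a planar cell polarity gene whose start site lay in a gained region that also gained H3K4me3, was at 2.01, 1.93 and 2.73 against 18.6, 26.1 and 6.23 CPM. Mybl2, a cell cycle transcription factor, was at 49.1, 39.4 and 49.1 against 115, 267 and 121 CPM. DESeq2 adjusted p-values were 5.73e-06 for Hk2, 9.47e-09 for Galk1, 0.000159 for Prickle1 and 0.00124 for Mybl2, and these 4 calls held without each library in turn. Adamts20, also with its start site in a gained region, was at 1.37, 1.77 and 0.396 against 17.1, 27.4 and 1.78 CPM, and its DESeq2 adjusted p of 0.00629 became 0.0946 at most, with the call lost without PRM library 5 or PRMK library 1 or 3. For none of these 16 genes was the edgeR adjusted p under 0.05, and the other 10 lost the DESeq2 call without at least 1 library. Of the 16, only Hoxb4, Prickle1 and Lrp2bp were nearest to a gained region at or above 47954 in both PRMK libraries. That value is the lowest H3K4me2 signal of PRM replicate 1. The Sytl1 region had a signal of 15839 in PRMK replicate 1, whose lowest listed signal was 15080, and the Mybl2 region lay 208 bp from a PRM peak. Myc itself, which had no gained region, was at 273, 312 and 205 CPM in PRMK and 1140, 2306 and 2059 CPM in PRM (DESeq2 adjusted p 3.67e-10).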

How the data were processed

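CUT&Tag peaks for H3K4me1, H3K4me2, H3K4me3 and KMT2C were made by the authors with Bowtie2 and SEACR on mm10, per the submitters' processing notes. Their deposited values are the total and the highest signal per peak, 1 list per library. The deposited ATAC lists carry a score that was not used beyond reading them; Bowtie2 2.2.1 made the alignments per the submitters' processing notes. RNA values are the deposited raw counts per gene, made by the authors with STAR 2.6.0a on GRCm38 per the submitters' processing notes. Not given in the sources used here were SEACR's control and scaling, the ATAC caller, and the counter, strand setting and gene filter of the RNA table. The PRM count columns are numbered 4 to 6 and the PRM labels 3 to 5, so columns were assigned to the group only.

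Regions were merged and compared by at least 1 bp of overlap with pandas 2.3.3. Intervals are 95% Clopper-Pearson intervals and cover counting error only. Start sites and promoter windows came from RefSeq tables on GRCm38.p6, with 1 nearest protein-coding start site, or all that lay inside, per region; the table holds no start sites on chromosome 18. Since it does not hold every gene, loci were also counted as the annotated gene with 10 kb on each side, and gene lists were read that way. Counts were tested with edgeR 4.0.16 (TMM, filterByExpr, quasi-likelihood test, Benjamini-Hochberg adjustment over 13914 genes), with DESeq2 1.42.0 as the alternative over 15479 genes. CPM used TMM library sizes. The region calls and the RNA tests were tested on simulated data.

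The members and lists were chosen with earlier results of these data known. Named genes are the nearest or host genes of the 8 regions of highest signal, the up to 10 genes nearest to the most gained regions, the 8 highest and 8 lowest DESeq2-called genes within 50 kb with no overlap and at least 1 CPM, up to 4 genes per list, and the drivers. Sequences of the regions themselves are not shown, so promoters inside them were used. Liver ATAC lists and the other RNA tables were not used here.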

Additional observations from a re-analysis of the deposited data

How the results depend on the processing

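The count of 2912 gained regions depended on how much signal a peak needed. It was 2912 with at least 200 bp covered, 2734 with peaks up to 1000 bp apart merged and 2801 without regions within 1000 bp of a PRM peak. It was 171 with the stronger 50 percent of PRMK peaks, 1525 with the same number of strongest peaks in each library (1240 of the 2912 shared), and 583 with PRMK peaks at or above 47954, an alternative added after seeing the data. Leaving out 1 library each, which drops a condition of the rule and cannot lower the count, gave 3211 to 10110.

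H3K4me1 in both PRMK libraries was 42% with the stronger 50 percent of its peaks, 67.2% in the 583 regions, and 55.9% to 67.6% with 1 library. H3K4me3 was 1.1%, 32.9%, and 15.7% to 31.8%. KMT2C in lung PRM was 1.89%, 3.95%, and 5.67% to 10.4%.

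edgeR called 0 genes except by its likelihood ratio test (454; 44 near gained regions) and without 1 library, where it called 0 to 796 (0 to 73 near gained regions), the highest without PRM library 4. DESeq2 called 1275 genes (120 near gained regions, 38 with a start site within 5 kb and 166 at any distance), and it called 218, 511 and 351 (23, 56 and 27 near gained regions) without PRMK libraries 1, 2 and 3, and 4018, 1460 and 2153 (349, 150 and 210) without PRM libraries 4, 5 and 6, in fits added after seeing the data. edgeR with DESeq2's size factors or with no filter on low counts called 0. The cause of these differences was not tested.

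Among 470 log2 fold changes of 47 named genes under other settings, 460 kept their direction. The 10 exceptions lay at 5 genes. Rgmb ran from -0.219 to 0.489 over the fits without 1 library, and was below 0 without PRMK library 1 (-0.032), PRMK library 2 (-0.129) and PRM library 5. Dnmbp ran from -0.566 to 1.097 and was above 0 without PRMK library 1 (0.01), PRMK library 2 (0.037) or PRM library 6, and at 0.021 without the filter. Notch1 ran from -3.195 to 0.435 and Ptprj from -0.584 to 0.723, both above 0 without PRM library 6 only. Kmt2c ran from -0.711 to 0.019 and was above 0 without PRM library 5. No paired analysis was possible because the RNA columns of the groups share no replicate number and the peak comparisons come from no test.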
